A study of Mus musculus with 34 samples.

Results

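The genes described here were the nuclear-encoded subunits of the mitochondrial oxidative phosphorylation complexes, measured as transcripts in mouse brain cortex. They were chosen by name among the protein-coding rows of the count table: names that start with Ndufa, Ndufb, Ndufc, Ndufs, Ndufv, Uqcr, Cox4, Cox5, Cox6, Cox7, Cox8 or Atp5, together with Sdha, Sdhb, Sdhc, Sdhd and Cyc1, without the Ndufaf assembly factors, and with a mean of at least 1 CPM (counts scaled to a common library total). The names gave 88 rows, of which 84 passed, out of 55385 genes in the table. Complex I had 37 members, complex II 4, complex III 9, complex IV 17 and complex V 17. Of the 4 rows left out, Cox8b had the highest mean, 0.499 CPM, and Cox6b2 was the lowest member kept, at 1.47 CPM. All 84 passed the filter on low counts and were tested.

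The mice were 6 months old, of both sexes (16 females and 18 males), and in 8 groups. Wild-type C57BL/6J mice, Dp16 mice, 5xFAD mice and 5xFAD-Dp16 mice were each given tofacitinib, an inhibitor of JAK1 and JAK3 kinases, at 15 mg/kg, or the vehicle, 0.5% methylcellulose (sham), by daily oral gavage over a month. Dp16 mice carry a duplication of the part of chromosome 16 that corresponds to much of human chromosome 21, and 5xFAD mice carry human transgenes with mutations of familial Alzheimer's disease under the Thy1 promoter, which is active mainly in neurons. The libraries analysed were 5 wild-type sham, 5 wild-type tofacitinib, 3 Dp16 sham, 5 Dp16 tofacitinib, 4 5xFAD sham, 5 5xFAD tofacitinib, 3 5xFAD-Dp16 sham and 4 5xFAD-Dp16 tofacitinib, with 16029841 to 21388650 counted reads each. The design asks how each genotype differs from wild type, and whether tofacitinib changes the cortex within a genotype. Replicates are separate mice and are numbered as in the labels, and the plots write WT for wild type and tofa for tofacitinib.

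Oxidative phosphorylation uses electrons from nutrients to pump protons across the inner mitochondrial membrane, and the returning protons drive ATP synthesis. Complex I (NADH dehydrogenase) and complex II (succinate dehydrogenase) feed electrons to ubiquinone, complex III passes them to cytochrome c, complex IV (cytochrome c oxidase) hands them to oxygen, and complex V is the ATP synthase. Complex II is built from nuclear genes alone, while each of the others also holds subunits encoded by mitochondrial DNA, so the nuclear and mitochondrial genomes both contribute to it. Neurons rely heavily on this pathway to pay for ion pumping and synaptic transmission. In bulk tissue a lower transcript level can come from fewer cells of a type or from less RNA per cell, and these cannot be told apart here.

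On the per-length scale (RPKM, here CPM divided by gene length in kilobases, mean of 34 libraries), the complex IV members had the highest median, 244 RPKM. Complex V followed with 225, complex III with 144, complex I with 128 and complex II with 96.0. Cox4i1, a regulatory subunit of cytochrome c oxidase, had the highest level of any member, 1090 RPKM, and Cox8a, a small transmembrane subunit of the same complex, reached 930 RPKM. Uqcrh, the hinge protein of complex III, stood at 712 RPKM and Uqcr11, another small complex III subunit, at 410 RPKM. Atp5b, the catalytic beta subunit of the ATP synthase head, had 629 RPKM and Atp5k, the membrane e subunit, 550 RPKM. In complex I the highest levels were those of the accessory subunits Ndufb9 (477 RPKM) and Ndufa1 (317 RPKM). In complex II they were those of the flavoprotein Sdha (132 RPKM) and the iron-sulfur protein Sdhb (116 RPKM).

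Several subunits exist as isoforms from separate genes, and in most families 1 form made up nearly all of the signal. Cox4i1 made up 99.5% to 99.8% of the per-length signal of Cox4i1 and Cox4i2, the form known from lung and hypoxia, over the 34 libraries. Cox6a1 made up 97.3% to 98.6% against the heart and muscle form Cox6a2, and Cox6b1 made up 99.1% to 99.9% against the testis form Cox6b2. Within Cox7a2, Cox7a2l and the muscle form Cox7a1, the median shares were 66.1%, 33.5% and 0.622%. Ndufa4, now placed in complex IV, made up 98.1% to 99.5% against Ndufa4l2. The c-ring of the ATP synthase is made from an identical mature protein encoded by Atp5g1, Atp5g2 and Atp5g3, whose median shares were 5.69%, 18.8% and 75.6%. The range over libraries was narrow for this family, from 72.4% to 77.7% for Atp5g3. These shares rest on the gene lengths used for RPKM, 4912, 731 and 724 bases for Atp5g1, Atp5g2 and Atp5g3. Before division by length the mean CPM was 125.5, 61.41 and 246.2 in the same order, with Atp5g1 above Atp5g2.

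The clearest difference between genotypes fell on the peripheral stalk of the ATP synthase, the strut that holds the catalytic head still while the c-ring turns. Atp5j (the F6 subunit, ENSMUSG00000022890.13, chromosome 16, 84827866 to 84835625 in GRCm38) and Atp5o (the OSCP subunit, ENSMUSG00000022956.11, chromosome 16, 91925214 to 91931687) are the 2 members inside the duplicated segment, which was taken as 75540514 to 97962622 of chromosome 16. A second gene model also named Atp5o overlaps the first and held a mean of 0.00177 CPM. The sequence before a start of each gene is printed because these are the duplicated genes whose transcripts rose. They come from RefSeq's promoter table for GRCm38.p6, minus strand, 5′ to 3′, with capitals for a YY1 core. That table holds 2 starts for Atp5j. The start used here was taken because its window holds the YY1 core, and the window of the other is chr16:84835576-84835875. The Atp5j stretch, chr16:84834977-84835123, is the 147 bases between the start used and the first transcribed base of Gabpa on the opposite strand. It lies inside the annotated Atp5j gene. The Atp5o stretch, chr16:91931631-91931780, is the 150 bases before its start.
Atp5j: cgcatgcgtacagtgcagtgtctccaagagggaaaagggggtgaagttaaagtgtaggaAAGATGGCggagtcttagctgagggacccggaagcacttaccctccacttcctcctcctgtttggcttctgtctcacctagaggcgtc
Atp5o: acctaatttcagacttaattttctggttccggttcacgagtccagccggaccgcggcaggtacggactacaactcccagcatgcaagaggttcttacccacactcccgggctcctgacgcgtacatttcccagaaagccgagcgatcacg

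Gabpa encodes a subunit of the GABP transcription factor, known for binding promoters of respiratory chain genes, and it lies head to head with Atp5j in the segment. Gabpa was 0.51 ± 0.06 (SE) higher on the log2 scale in Dp16 carriers than in non-carriers, with an adjusted p of 3.36e-06 in edgeR. The annotated Atp5j gene reaches past the first base of Gabpa, 84835124, and the strand setting of the counting is not given in the sources used here, so reads in that overlap cannot be assigned with certainty. Of the remaining members only Ndufb4 is on chromosome 16 (37647170 to 37654453, minus strand), outside the segment.

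Atp5j measured 199.7, 242.4, 150.5, 231.2 and 195.3 CPM in the wild-type sham libraries 1 to 5 and 269.1, 325.3 and 348.7 CPM in the Dp16 sham libraries 1 to 3. In tofacitinib-treated wild-type mice 1 to 5 it measured 261.9, 156.8, 204.5, 160.0 and 144.5 CPM, and in Dp16 mice 276.8, 348.2, 282.1, 431.7 and 290.9 CPM. Every Dp16 library stood above every wild-type library of the same treatment, as in 2.77% of all genes in sham mice and 0.771% under tofacitinib. The 5xFAD sham libraries 1 to 4 held 150.8, 121.3, 133.8 and 149.3 CPM, against 261.0, 195.1 and 246.6 CPM in 5xFAD-Dp16 sham libraries 1, 2 and 4. The 5xFAD tofacitinib libraries 1, 2, 4, 5 and 6 held 128.9, 222.6, 183.7, 184.5 and 201.9 CPM, against 322.2, 261.8, 381.8 and 240.2 CPM in 5xFAD-Dp16 tofacitinib libraries 1 to 4. Here too the groups with and without the duplication did not overlap. In sham mice 7 members, and 5.32% of all genes, had all 5xFAD-Dp16 libraries above all 5xFAD libraries. The share under tofacitinib was not counted.

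Averaged over both treatments and both 5xFAD states, Atp5j rose 1.66-fold in Dp16 carriers (log2 0.73 ± 0.09 SE), with an adjusted p of 2.53e-06 in edgeR's quasi-likelihood test. Atp5o rose 1.61-fold (log2 0.69 ± 0.09 SE, adjusted p = 8.54e-06 in edgeR). These were the 2 members called among 84 in that comparison, beside 2.14% of all 17632 genes tested (called means an adjusted p under 0.05 throughout). The median difference of the members was 0.06 (0.02 without 5xFAD tofacitinib library 1 and 0.13 without wild-type tofacitinib library 1) and that of all genes 0.00 on the log2 scale. The other stalk subunits were measured at 0.06 ± 0.10 (Atp5pb, the b subunit) and 0.00 ± 0.11 (Atp5h, the d subunit), log2 differences with SE, neither called. Both calls held under each alternative processing and with each library left out in turn, with Atp5j between 0.65 and 0.78 and Atp5o between 0.60 and 0.75 on the log2 scale over all of these.

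Atp5o measured 267.6, 329.5, 196.0, 295.7 and 251.3 CPM in wild-type sham libraries 1 to 5 and 338.6, 415.6 and 436.6 CPM in Dp16 sham libraries 1 to 3. Under tofacitinib it measured 353.7, 205.8, 265.4, 202.3 and 185.3 CPM in wild-type libraries 1 to 5 and 347.0, 449.2, 395.1, 518.2 and 364.1 CPM in Dp16 libraries 1 to 5. Groups of the sham treatment did not overlap, beside 2.77% of all genes, whereas wild-type tofacitinib library 1 lay above Dp16 tofacitinib library 1. In 5xFAD sham libraries 1 to 4 Atp5o stood at 186.0, 171.9, 171.1 and 184.2 CPM, and in 5xFAD-Dp16 sham libraries 1, 2 and 4 at 335.7, 268.3 and 326.1 CPM. In 5xFAD tofacitinib libraries 1, 2, 4, 5 and 6 it stood at 159.9, 295.6, 248.4, 253.7 and 256.6 CPM, and in 5xFAD-Dp16 tofacitinib libraries 1 to 4 at 429.1, 324.1, 469.3 and 293.0 CPM. The sham groups were separate, beside 5.32% of all genes, and under tofacitinib 5xFAD-Dp16 library 4 lay just below 5xFAD library 2.

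Read within each library, the contrast was sharper. The ratio of Atp5j CPM to the geometric mean CPM of Atp5h and Atp5pb, the stalk subunits outside the segment, ran from 0.851 to 1.06 in the 15 Dp16 carriers (median 0.949) and from 0.482 to 0.681 in the 19 non-carriers (median 0.618). The Atp5o ratio ran from 1.17 to 1.30 in carriers (median 1.19) and from 0.656 to 0.883 in non-carriers (median 0.792). Neither ratio overlapped between carriers and non-carriers, although the CPM values of both genes did. The mean ratio was 1.59-fold higher in carriers for Atp5j and 1.55-fold higher for Atp5o, given as a description with no test.

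**Figure D1:**
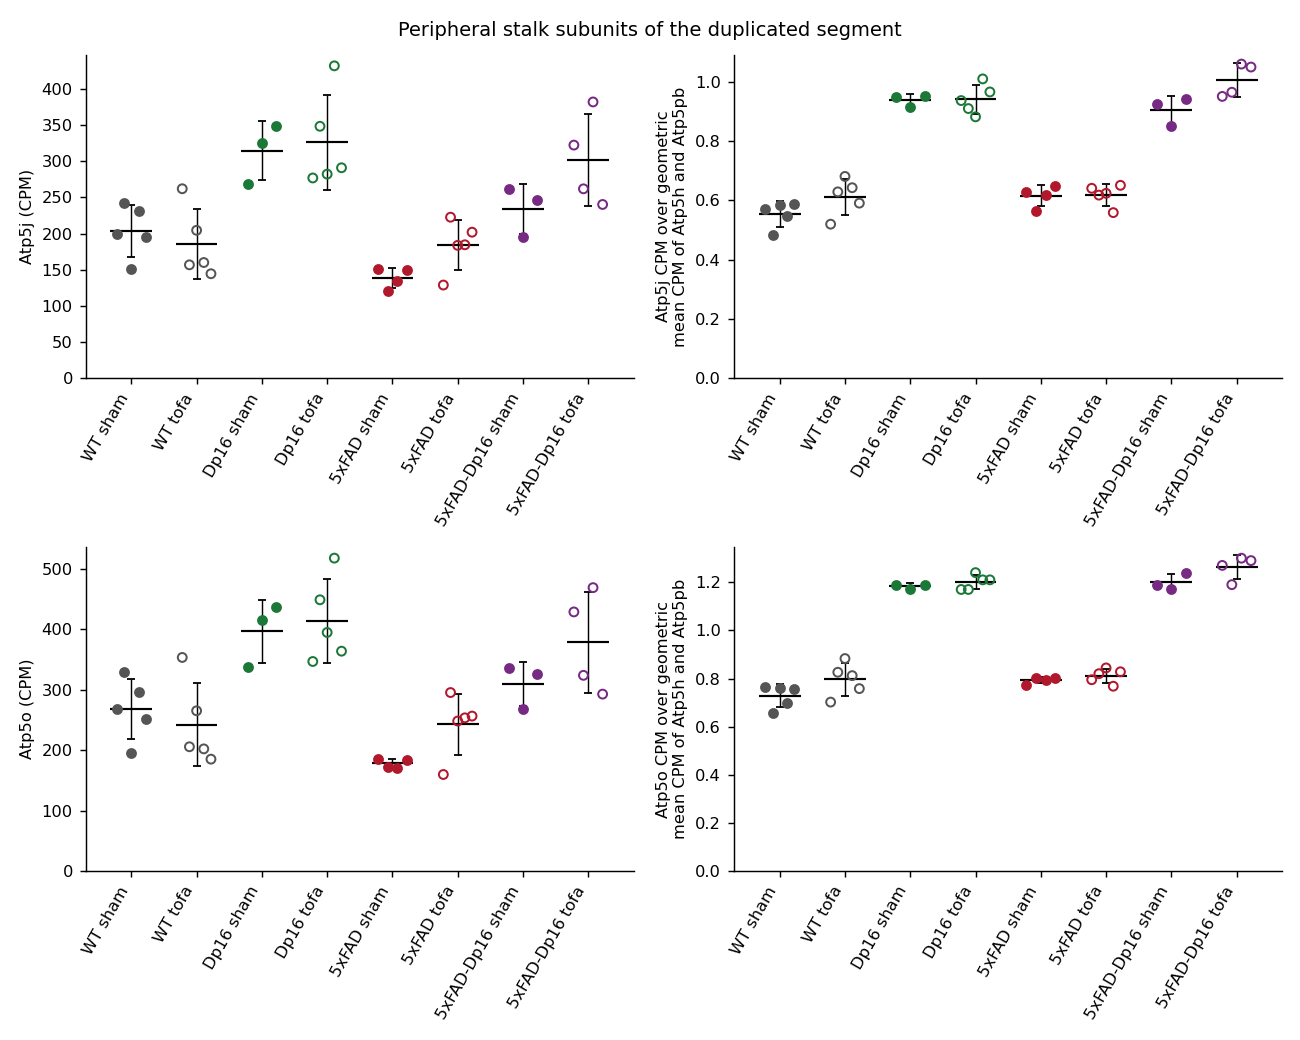
Atp5j (top) and Atp5o (bottom) by group, as CPM on the left and as the ratio to the geometric mean CPM of Atp5h and Atp5pb on the right; each point is a library (filled sham, open tofacitinib), with the group mean as a line and its SD as a bar. In the ratio panels all 15 Dp16 carriers lie above all 19 non-carriers, at 0.851 or more against 0.681 or less for Atp5j.

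In the single comparisons both genes were higher with the duplication, but not always past the threshold. In tofacitinib-treated mice, Dp16 against wild type, Atp5j rose 1.76-fold (adjusted p = 0.0137 in edgeR) and Atp5o 1.71-fold (adjusted p = 0.0284), the 2 members called beside 0.25% of all genes. Neither was called there when only those groups were fitted, with the replicate number as a block, or without wild-type tofacitinib library 2, 4 or 5 or Dp16 tofacitinib library 4, and 1 was called without Dp16 tofacitinib library 2, beside 0.204% of all genes. In sham mice no member was called in Dp16 against wild type, beside 0.21% of all genes. Atp5j was at 1.54-fold (adjusted p = 0.272) and Atp5o at 1.48-fold (adjusted p = 0.426) in edgeR. They were 2 of the 3 members with an unadjusted p under 0.05, and DESeq2 called none. They were also the 2 members whose Dp16 sham libraries all lay above the wild-type sham libraries, beside 2.77% of all genes. In 5xFAD-Dp16 against 5xFAD sham no member was called by edgeR, beside 0.102% of all genes, while 2 members had an unadjusted p under 0.05 and DESeq2 called 1, beside 0.216%. Atp5o was at 1.73-fold (adjusted p = 0.206) and Atp5j at 1.69-fold (adjusted p = 0.254) there. In 5xFAD-Dp16 against wild-type tofacitinib mice none was called, beside 0.306% of all genes. Atp5j was then at 1.63-fold (adjusted p = 0.0679) and Atp5o at 1.56-fold (adjusted p = 0.135) in edgeR, these were the 2 with an unadjusted p under 0.05, DESeq2 called 2, beside 0.715% of all genes, and edgeR without wild-type tofacitinib library 1 called 2, beside 0.444%. The comparisons within a treatment share control libraries and are not independent.

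No member was called for the interaction of 5xFAD and Dp16, beside 0.00567% of all genes, and 2 had an unadjusted p under 0.05 while DESeq2 called none. These 2 were Ndufv1, the flavoprotein of complex I that binds NADH (log2 -0.16 ± 0.07 SE), and the accessory subunit Ndufa10 (-0.13 ± 0.06), both with an adjusted p of 0.995 in edgeR. Ndufv3, a complex I subunit whose human counterpart lies on chromosome 21, lies on mouse chromosome 17 and is outside the segment. It stood at log2 0.03 ± 0.07 (SE) in Dp16 carriers against non-carriers, with an adjusted p of 0.923 in edgeR.

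Most members were high or low in the same libraries, although Sdha was lowest of its group in wild-type sham library 2, the highest for the members, and Atp5a1, Ndufa10 and Ndufs1 varied little. As a summary, the median over the members of the log2 difference from the wild-type sham mean was taken in each library. It ran from -0.43 (library 3) to 0.35 (library 2) in wild-type sham, from -0.53 (library 5) to 0.43 (library 1) in wild-type tofacitinib, from -0.25 to 0.08 in Dp16 sham and from -0.19 to 0.34 in Dp16 tofacitinib. It ran from -0.62 to -0.48 in 5xFAD sham, from -0.69 (library 1) to 0.10 (library 2) in 5xFAD tofacitinib, from -0.55 to -0.23 in 5xFAD-Dp16 sham and from -0.38 to 0.15 in 5xFAD-Dp16 tofacitinib. The 4 5xFAD sham libraries were therefore close to each other and below every wild-type sham library, whereas the range within wild-type tofacitinib and 5xFAD tofacitinib was wider than the difference between any of the group means. Together the members took 1.17% to 2.30% of the counted reads of a library. Wild-type tofacitinib library 1 held the highest value of 46 members and 5xFAD tofacitinib library 1 the lowest value of 44.

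**Figure D2:**
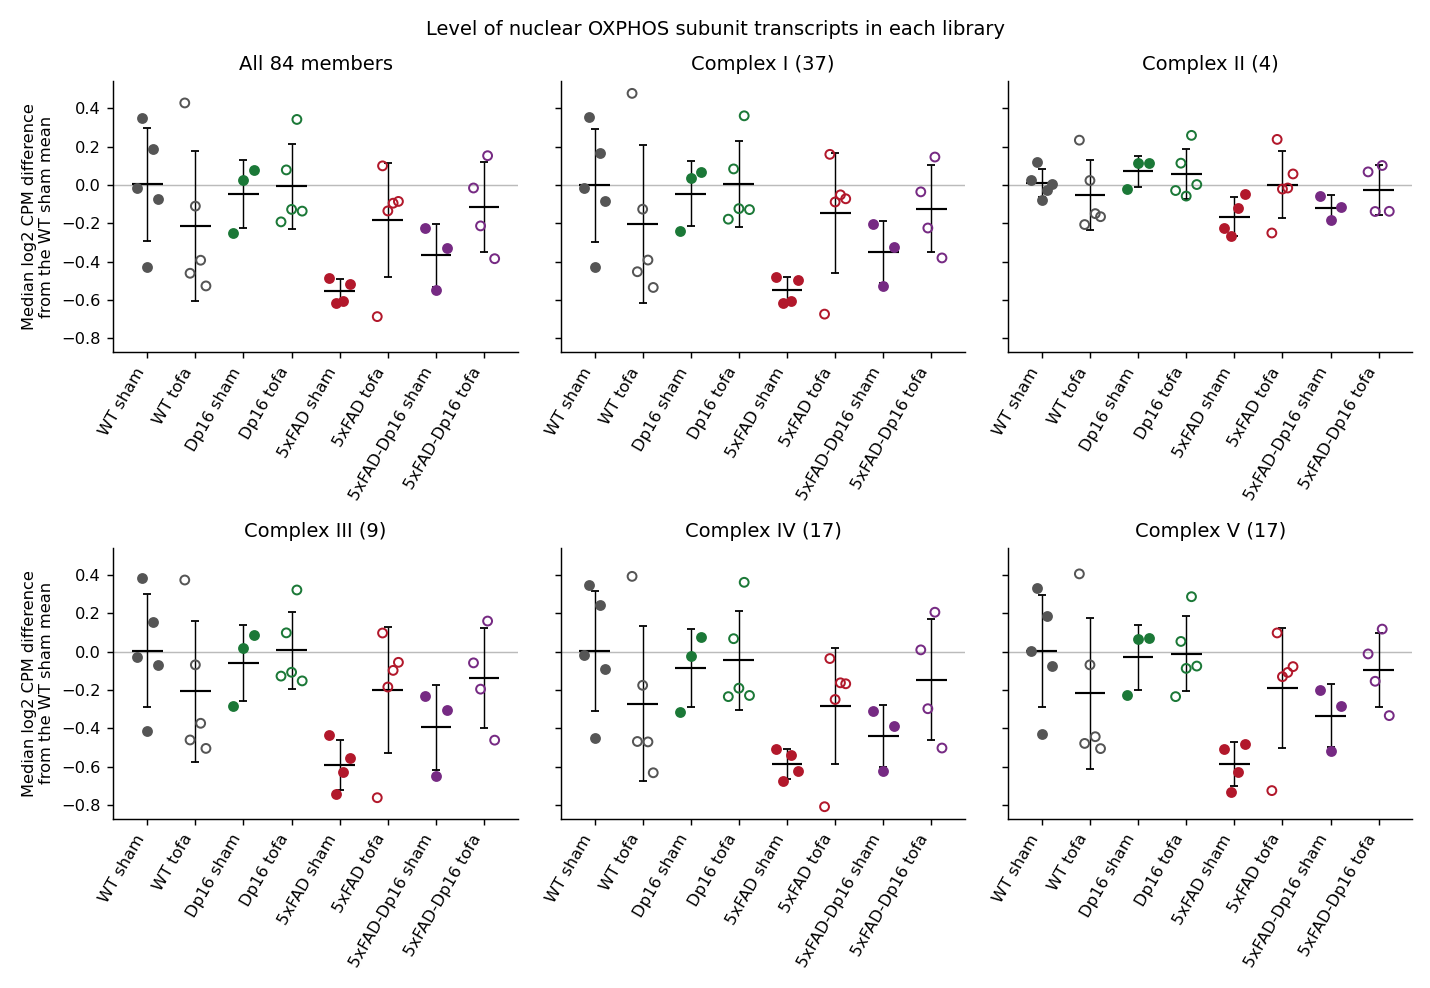
Median log2 CPM difference from the wild-type sham mean over all members and over each complex (y axis) by group (x axis); each point is a library (filled sham, open tofacitinib), with the group mean as a line and its SD as a bar. The 5xFAD sham libraries lie between -0.62 and -0.48 over all members, and complex II moves least.

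In 5xFAD against wild-type sham mice, 81 of 84 members were lower and 3 higher, with a median log2 difference of -0.56 where the median of all genes was 0.01. None was called in the fit of all 34 libraries, beside 0.017% of all genes, and the lowest adjusted p of a member was 0.0606. An unadjusted p under 0.05 was reached by 67 members in the lower direction, beside 13.8% of all genes, and by Sdha in the higher direction. In 33 members all 5xFAD sham libraries lay below all wild-type sham libraries, beside 5.91% of all genes. Other tools or settings called many of them lower: DESeq2 55 members beside 9% of all genes, limma-voom with sample weights 61 beside 14.2%, and edgeR with no filter on low counts 59 beside 5.57%. Without wild-type sham library 3, the lowest of its group, edgeR called 60 members beside 11.2% of all genes. The call therefore depended on the tool, on the settings of edgeR and on 1 control library. The median stayed between -0.65 and -0.48 with any 1 library left out.

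Ndufb4, an accessory subunit of the complex I membrane arm, had the lowest p. It measured 153.2, 237.6, 99.66, 184.6 and 133.4 CPM in wild-type sham libraries 1 to 5 and 89.82, 66.45, 68.92 and 71.47 CPM in 5xFAD sham libraries 1 to 4. The groups did not overlap, and the log2 difference was -1.10 ± 0.28 (SE), with an adjusted p of 0.0606 in edgeR. Uqcrb, a small subunit near the quinone site of complex III, measured 133.6, 182.0, 104.2, 164.5 and 124.1 CPM in the wild-type sham libraries and 103.5, 82.91, 73.18 and 88.47 CPM in the 5xFAD sham libraries. Its groups were separate by a narrow margin, with a log2 difference of -0.69 ± 0.18 (SE) and an adjusted p of 0.0606 in edgeR. Cox4i1 measured 938.5, 1346, 652.1, 1165 and 867.0 CPM in the wild-type sham libraries and 611.2, 566.0, 563.7 and 591.1 CPM in the 5xFAD sham libraries. All 4 values lay below the lowest wild-type one, with a log2 difference of -0.77 ± 0.22 (SE) and an adjusted p of 0.0606 in edgeR.

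The size of the difference varied with the role of the subunit. In complex I the 7 core subunits, the conserved ones that carry the redox centres, had a median of -0.21, and the 30 accessory ones -0.58. Of the core subunits Ndufs1, which holds iron-sulfur clusters, was at 0.04 and Ndufv2 at -0.72. In complex III the 4 core subunits (Uqcrc1, Uqcrc2, Cyc1 and the Rieske protein Uqcrfs1) had a median of -0.29 and the 5 small ones -0.70. The 11 common subunits of complex IV had a median of -0.76, from -0.36 for Cox5a, the subunit that faces the matrix, to -0.90 for Cox7b. The 6 tissue isoforms and paralogs of complex IV had a median of -0.50.

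Within complex V, the 5 subunits of the F1 head had a median of -0.12. The alpha subunit Atp5a1 was at 0.06 and the beta subunit Atp5b at -0.12, while the small epsilon subunit Atp5e was at -0.86. The c-ring genes had a median of -0.26, the peripheral stalk -0.63 and the membrane accessory subunits -0.85, down to -1.09 for Atp5md. Atp5b measured 1245, 1290, 1175, 1294 and 1273 CPM in wild-type sham libraries 1 to 5 and 1095, 1171, 1204 and 1159 CPM in 5xFAD sham libraries 1 to 4. These groups overlapped. Complex II differed least, with a median of -0.17, from Sdhd, a membrane anchor, at -0.59 to Sdha at 0.18. Sdha measured 369.3, 315.8, 363.8, 344.0 and 404.8 CPM in the wild-type sham libraries and 412.4, 435.5, 401.5 and 382.1 CPM in the 5xFAD sham libraries, which overlapped, with an adjusted p of 0.133 in edgeR.

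**Figure D3:**
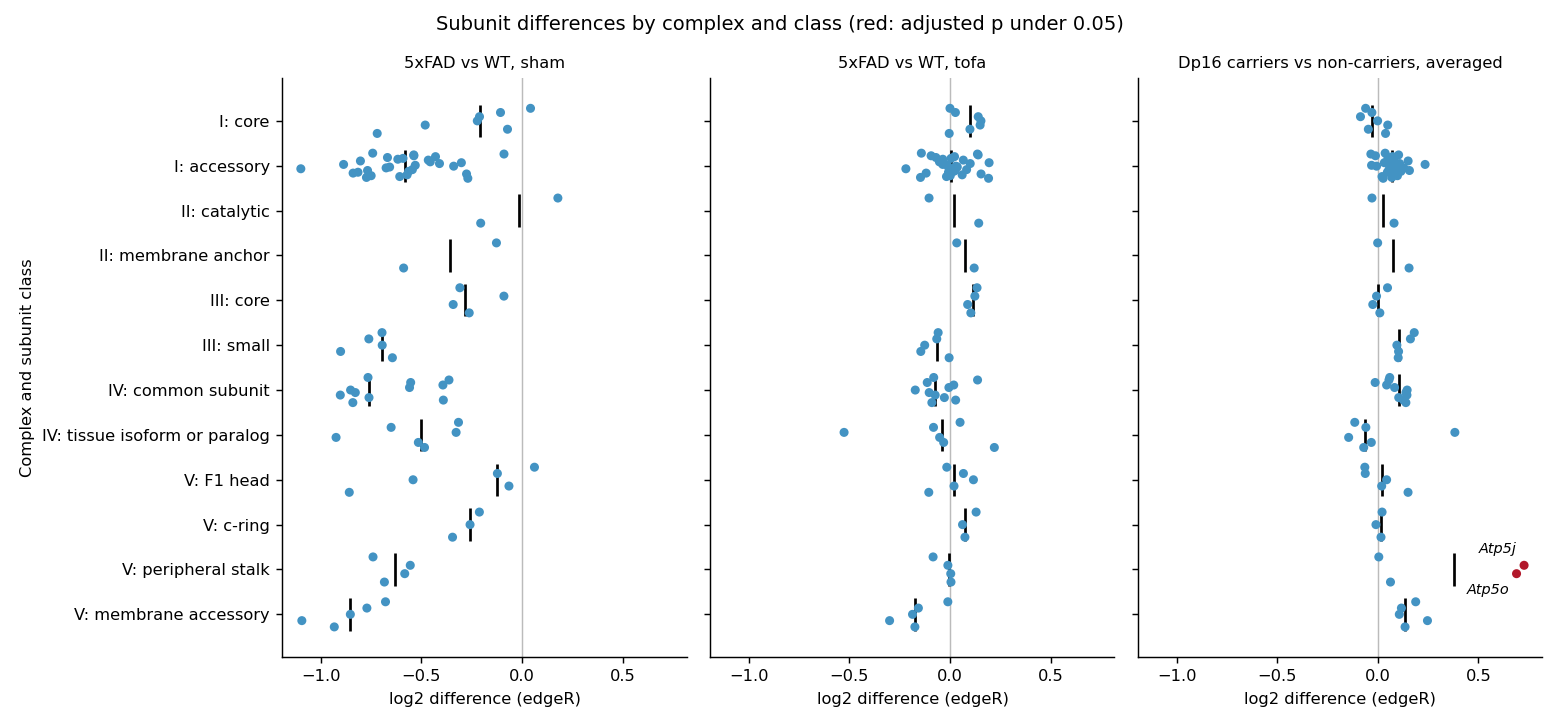
The log2 difference of each member (x axis, edgeR fit) by complex and subunit class (y axis) for 5xFAD against wild type in sham and in tofacitinib-treated mice and for Dp16 carriers against non-carriers; each point is a gene, red where called, and the black bar is the class median. Atp5j and Atp5o stand apart on the right, and in sham 5xFAD mice the complex V head has a median of -0.12 against -0.85 for its membrane accessory subunits.

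Within complexes I and V, the class with the largest difference had the shortest genes by the length used for RPKM. That length is 1 value per gene and need not be that of the transcript expressed in cortex. Median length (the length used for RPKM) was 892 bases for accessory and 1623 bases for core complex I subunits, and 667 bases for membrane accessory and 1815 bases for head subunits of complex V. The order did not hold for every class: the c-ring genes, with a median of 731 bases, were at -0.26, and the longer peripheral stalk genes at -0.63. Over the 84 members the difference in 5xFAD sham mice went with length (Spearman's rho 0.48 across genes, which share the same libraries and are not independent), and over all 17632 genes rho was 0.40. The 33 members under 800 bases had a median of -0.69, the 21 of 800 to 1200 bases -0.56 and the 30 over 1200 bases -0.30. The other genes were split by length into 3 classes of nearly equal size, of which the shortest (up to 2235 bases) had a median of -0.21 and the longest (from 4105 bases) 0.15. The median length of the members, 977 bases, compares with 3058 bases over all genes tested. Atp5md, at 2755 bases by this measure, was an exception, with a difference of -1.09.

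When a smooth trend of expression on length was removed within each library, the members' median in 5xFAD against wild-type sham became -0.20, with 66 lower and 18 higher. edgeR then called 10 members, all lower, beside 1.9% of all genes. They were the complex I subunits Ndufb4, Ndufb9, Ndufs6 and Ndufv2, the complex IV subunits Cox4i1 and Cox6c, and the complex V subunits Atp5c1 (the rotor stalk), Atp5md, Atp5pb and Atp5h. The class order was partly kept: accessory complex I subunits were at -0.23 and core ones at 0.05, and the complex V head was at -0.02 and its membrane accessory subunits at -0.35. Nuclear genes for other small, abundant proteins were lower too before the trend was removed. Genes for cytosolic ribosomal proteins had a median of -0.65 in 5xFAD sham mice, with 83 of 83 lower and none called, and those for mitochondrial ribosomal proteins -0.40, with 74 of 77 lower. The ribosomal genes were high and low in much the same libraries as the members: wild-type sham libraries 2 and 3 were at 0.36 and -0.51, and 5xFAD tofacitinib libraries 1 and 2 at -0.88 and 0.12. The part of gene length or of a shared library property in the members' difference was not tested.

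**Figure D4:**
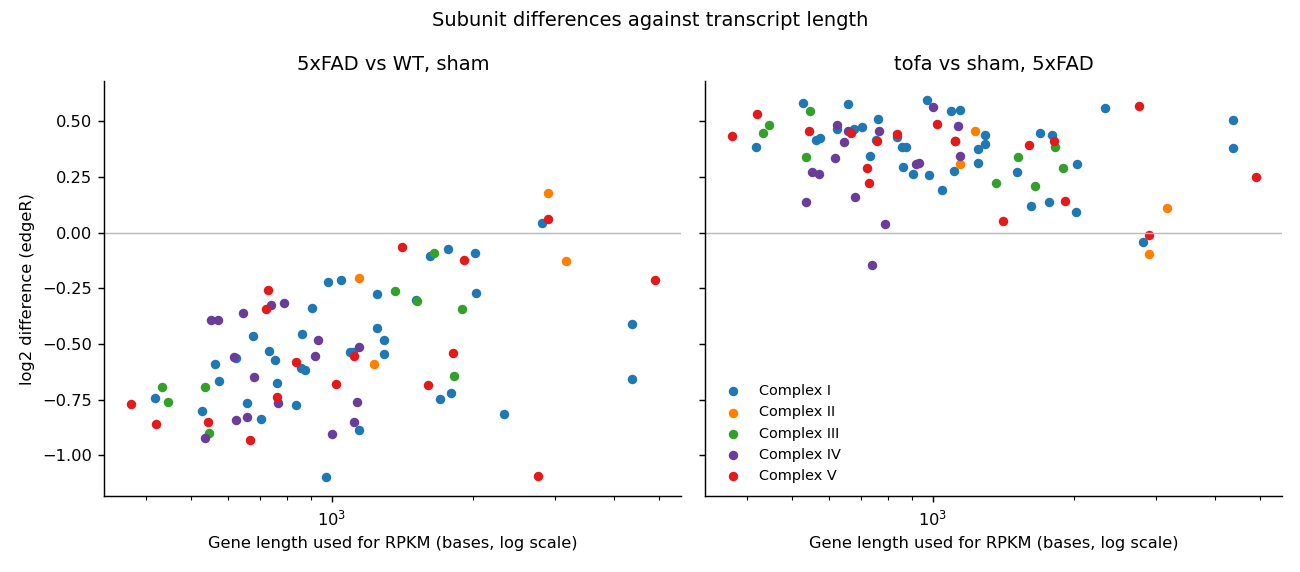
The log2 difference of each member (y axis, edgeR fit) against gene length in bases (x axis, log scale), coloured by complex, for 5xFAD against wild-type sham mice and for tofacitinib against sham in 5xFAD mice. Members under 800 bases have medians of -0.69 and 0.42 and those over 1200 bases -0.30 and 0.31.

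**Figure D5:**
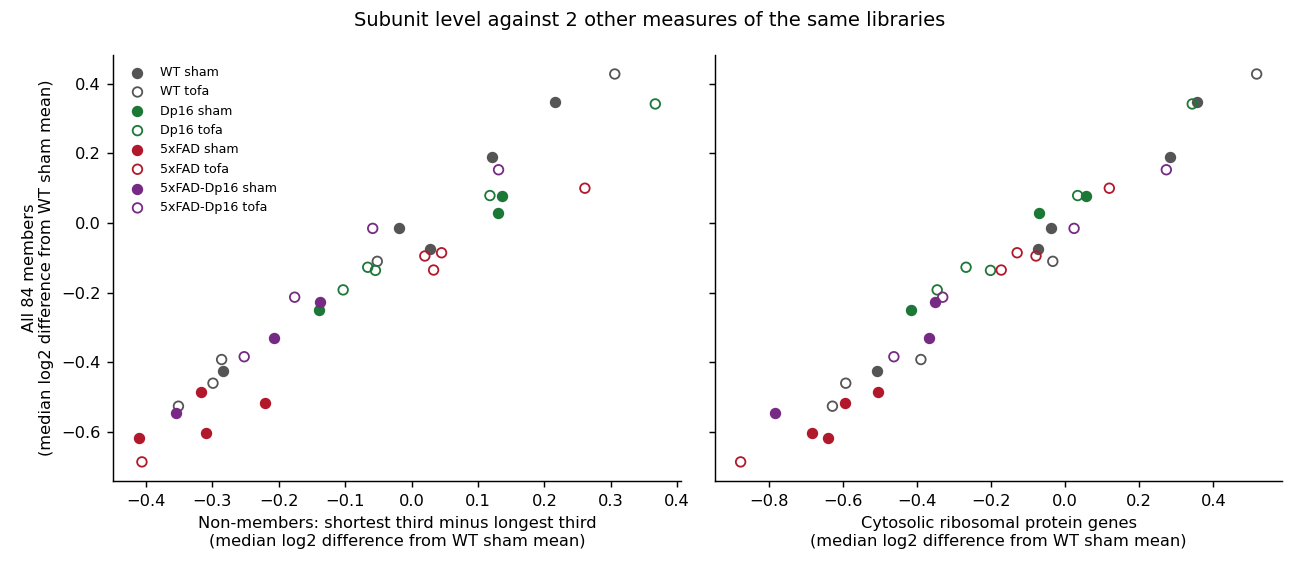
Median log2 difference of the 84 members from the wild-type sham mean (y axis) against the same median of the shortest minus that of the longest length class of all other genes (left x axis) and against cytosolic ribosomal protein genes (right x axis); each point is a library, filled for sham and open for tofacitinib. 5xFAD tofacitinib library 1 lies lowest, at -0.69 for the members and -0.88 for the ribosomal genes.

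The library spread of single members had the same pattern. Within groups, the SD of log2 CPM was lowest for Atp5a1 (0.05), Ndufa10 (0.05) and Atp5b (0.07), and highest for Atp5md (0.49), Atp5e (0.46) and Ndufb4 (0.44). Over the 34 libraries Atp5a1 ranged 1.18-fold, from 746 to 883 CPM, and Atp5md 4.79-fold, from 90.6 CPM in 5xFAD tofacitinib library 1 to 434 CPM in wild-type tofacitinib library 1. By class the median SD was 0.07 for the ATP synthase head and 0.39 for its membrane accessory subunits, 0.14 for core and 0.29 for accessory complex I subunits, and 0.15 for core and 0.35 for small complex III subunits. Transcripts whose proteins sit in the same complex in fixed numbers therefore differed widely in how much they varied.

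Cell type markers were read in the same libraries. The excitatory neuron, astrocyte, mature oligodendrocyte and choroid plexus sums came mostly from 1 gene each. Mean CPM was 4610 for Camk2a, 4150 for Slc1a2, 4900 for Mbp and 132 for Ttr, in that order. In sham mice the summed CPM of 6 excitatory neuron markers ran from 4706 to 7039 in wild-type and from 6972 to 7209 in 5xFAD libraries. The 6 astrocyte markers summed to 4305 to 6005 CPM and 5349 to 6256 CPM, the 6 microglia markers to 355 to 441 CPM and 424 to 501 CPM, and the 6 mature oligodendrocyte markers to 7105 to 8719 CPM and 5707 to 7626 CPM. Choroid plexus markers summed to 16.6 to 228 CPM in wild-type sham and 11.1 to 14.3 CPM in 5xFAD sham libraries, and reached 1506 CPM in 5xFAD tofacitinib library 2, whose excitatory neuron markers were the lowest of all, at 2521 CPM. The 8 striatum markers summed to 2361 CPM in wild-type tofacitinib library 1, the highest for the members, and to 471 to 745 CPM in the other 4 of its group. They summed to 545 CPM in 5xFAD tofacitinib library 1, the lowest for the members, and to 1178 to 1729 CPM in the other 4 of its group. This did not hold in every group. In 5xFAD-Dp16 tofacitinib library 3 they summed to 343 CPM, the lowest of all libraries. Its member median, 0.15, was the highest of its group. In sham mice they summed to 879 to 2321 CPM in wild-type and 1115 to 1663 CPM in 5xFAD libraries. The choroid plexus marker Kcne2 was at 0 in 6 libraries. Their part in the members' difference was not tested. Without wild-type sham library 2 and 5xFAD tofacitinib library 2, the highest of their groups in the member median, the median in 5xFAD against wild-type sham mice was -0.48 and edgeR again called 0 members. The tofacitinib library is not among the groups compared there, and without wild-type sham library 2 alone the median was also -0.48.

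The other comparisons of 5xFAD carriers gave smaller medians. In 5xFAD-Dp16 against wild-type sham mice 81 members were lower, with a median of -0.41 and none called, beside 0.363% of all genes. An unadjusted p under 0.05 was reached by 40 members, all lower, beside 7.62% of all genes, DESeq2 called none, and edgeR with no filter on low counts called 41, beside 2.73%. In 10 members all libraries lay below wild-type sham, beside 3.96% of all genes. The lowest p values were those of Ndufs3, a core complex I subunit (log2 -0.32 ± 0.11 SE, adjusted p = 0.214 in edgeR), and Atp5h (-0.63 ± 0.23, adjusted p = 0.242). Against Dp16 sham mice, 5xFAD-Dp16 sham mice had 82 members lower, with a median of -0.33, and none called, beside 0.00567% of all genes. No member had an unadjusted p under 0.05 there, and DESeq2 called none. In 30 members all 5xFAD-Dp16 libraries lay below all Dp16 libraries, beside 9.91% of all genes, and in Sdha they lay above, beside 10.1% of all genes. Sdhc, a membrane anchor of complex II, was at -0.21 ± 0.11 (SE) and Atp5j at -0.42 ± 0.21, both with an adjusted p of 0.696 in edgeR.

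Averaged over treatment and Dp16 state, 82 of 84 members were lower in 5xFAD carriers, with a median of -0.26 and none called, beside 0.42% of all genes. An unadjusted p under 0.05 was reached by 63 members, all lower, beside 11.8% of all genes. DESeq2 called 16, beside 3.33% of all genes, and edgeR with no filter on low counts called 54, beside 4.24%. Ndufa12, an accessory subunit of complex I, had the lowest p (log2 -0.27 ± 0.08 SE, adjusted p = 0.0918 in edgeR). Without wild-type sham library 3 edgeR called 5 members, beside 1.66% of all genes, and without 5xFAD-Dp16 tofacitinib library 3 it called 4, beside 1.41%. The 2 members that were not lower were Sdha, at 0.06 ± 0.04, and Atp5a1, at 0.01 ± 0.03.

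In 5xFAD against wild-type mice under tofacitinib the members were evenly divided: 42 members were higher and 42 lower, with a median of 0.00 and none called, beside 0.017% of all genes. An unadjusted p under 0.05 was reached by 2 members, Ndufa10 (0.14 ± 0.05 SE, adjusted p = 0.757 in edgeR) and Ndufa9 (0.19 ± 0.09, adjusted p = 0.761), both higher, and DESeq2 called none. Without wild-type tofacitinib library 1 the median was 0.19, and without 5xFAD tofacitinib library 1 it was 0.11. In 5xFAD-Dp16 against wild-type tofacitinib mice the median was 0.03, with 0.25 without wild-type tofacitinib library 1 and -0.07 without 5xFAD-Dp16 tofacitinib library 3.

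Tofacitinib against sham gave no called member in any genotype, and no gene of the table was called in those 4 comparisons (0% of all genes in each) or in their average (0%). The direction of the members differed by genotype. In wild-type mice 81 members were lower under tofacitinib, with a median of -0.18, and 4 had an unadjusted p under 0.05 in the lower direction, beside 2.82% of all genes. Sdha went the other way, at 0.19 ± 0.07 (SE, adjusted p = 0.661 in edgeR). The median was -0.39 without wild-type tofacitinib library 1 and -0.07 without wild-type sham library 2. In Dp16 mice the median was 0.05 and no member had an unadjusted p under 0.05. The median was -0.06 without Dp16 tofacitinib library 4 or Dp16 sham library 1, and 0.15 without Dp16 sham library 3. In 5xFAD mice 80 members were higher, with a median of 0.39, and 43 had an unadjusted p under 0.05 in the higher direction, beside 8.08% of all genes. In 5xFAD-Dp16 mice 77 were higher, with a median of 0.24 (0.13 without 5xFAD-Dp16 tofacitinib library 3) and none with an unadjusted p under 0.05. DESeq2 called no member in any of these 4 comparisons. In the average over genotypes 78 members were higher, with a median of 0.13 (0.08 without wild-type tofacitinib library 1), 3 with an unadjusted p under 0.05 and none called by DESeq2.

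For 5xFAD mice the drug comparison again depended on the tool and its settings. limma-voom with sample weights, which gives less weight to libraries that stand apart, called 37 members higher, beside 5.61% of all genes, and edgeR with no filter on low counts called 45, beside 2% of all genes. Cox5a was at 0.41 ± 0.12 (SE) and the complex I accessory subunit Ndufa11 at 0.55 ± 0.17, each with an adjusted p of 0.32 in edgeR. Leaving out 5xFAD tofacitinib library 1, the lowest of its group, gave 6 called members in edgeR, beside 2% of all genes. The median was then 0.50, and it was 0.33 without 5xFAD tofacitinib library 2, the highest of its group. In that genotype too, the shorter members had the larger differences, 0.42 under 800 bases and 0.31 over 1200 bases.

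The interaction of 5xFAD and tofacitinib in mice without Dp16 tests whether the drug's difference was the same in 5xFAD and wild-type mice. Its median over the members was 0.58 and 80 members were above 0. None was called in the fit of all libraries (0% of all genes), the lowest adjusted p was 0.192, and DESeq2 called none. An unadjusted p under 0.05 was reached by 60 members in the higher direction, beside 10.2% of all genes. limma-voom called 74 members, beside 20.2% of all genes, and edgeR with no filter on low counts 51, beside 3.64%. Without wild-type tofacitinib library 1, edgeR called 68 members, beside 13.1% of all genes, and without 5xFAD tofacitinib library 1 it called 24, beside 8.55%. With the length trend removed the median was 0.16 and no member was called.

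Ndufa9, an accessory complex I subunit at the junction of its arms, had the lowest p of the interaction. It measured 104.3, 138.9, 109.6, 127.0 and 116.0 CPM in wild-type sham libraries 1 to 5 and 117.4, 88.66, 105.0, 94.56 and 105.3 CPM in wild-type tofacitinib libraries 1 to 5. In 5xFAD mice it measured 94.25, 98.58, 97.85 and 97.82 CPM in sham libraries 1 to 4 and 97.98, 132.4, 116.8, 120.6 and 117.2 CPM in tofacitinib libraries 1, 2, 4, 5 and 6. The 5xFAD sham values lay below all wild-type sham values, and 4 of the 5 5xFAD tofacitinib values lay above all 5xFAD sham values. The interaction was 0.50 ± 0.13 (SE) on the log2 scale, with an adjusted p of 0.192 in edgeR. Atp5c1 was next, at 0.66 ± 0.21 with the same adjusted p.

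The 13 subunits encoded by mitochondrial DNA, the partners of complexes I, III, IV and V, did not follow the nuclear members in every group. In 5xFAD against wild-type sham mice all 13 were lower, with a median of -0.24 and none called. In 5xFAD against wild-type tofacitinib mice, where the nuclear median was 0.00, the mitochondrial median was -0.32, again with all 13 lower and none called. Across libraries, 5xFAD tofacitinib library 1, the lowest for nuclear members at -0.69, was at -0.10 for the mitochondrial ones, and 5xFAD tofacitinib library 4, at -0.14 for the nuclear ones, was at -0.51. mt-Atp6, the ATP synthase subunit that forms the proton path beside the c-ring, was the gene called in the interaction of 5xFAD and Dp16, at log2 0.62 ± 0.10 (SE) with an adjusted p of 0.0221 in edgeR. It measured 133.5 ± 11.8 CPM (SD, n = 5) in wild-type sham, 96.4 ± 12.4 (n = 3) in Dp16 sham, 104.3 ± 10.2 (n = 4) in 5xFAD sham and 111.2 ± 12.2 (n = 3) in 5xFAD-Dp16 sham. Under tofacitinib the same genotypes stood at 130.6 ± 15.0 (n = 5), 109.0 ± 6.79 (n = 5), 99.5 ± 7.92 (n = 5) and 132.7 ± 18.5 CPM (n = 4). The libraries were selected for poly-A tails, which mitochondrial transcripts carry only in short form. Counts differed widely among the mitochondrial genes. In wild-type sham, mt-Co1 stood at 12590 CPM and mt-Cytb at 8862, whereas mt-Co2 (103.1) and mt-Co3 (122.3) were near mt-Atp6. Whether all reads of mt-Atp6 were counted was not tested, so its CPM may not give its level against other transcripts.

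Other lists of the pathway were read in 5xFAD against wild-type sham mice, where none of their genes was called. Among 46 assembly factors tested, the proteins that build the complexes, 39 were lower with a median of -0.34. Cox16 (-1.04 ± 0.27 SE) and the complex I factor Ndufaf2 (-0.76 ± 0.21) had the lowest p values, both with an adjusted p of 0.0606 in edgeR. Of 15 genes for protein import into mitochondria 14 were lower, with a median of -0.35, and of 14 genes for electron carriers and exchange 13 were lower, with a median of -0.16. Cycs, which encodes cytochrome c, was at -0.49 ± 0.14 (adjusted p = 0.0606 in edgeR). The 16 genes of the citric acid cycle had a median of -0.07. The 16 glycolysis genes had a median of 0.15 with 11 higher, among them Eno2, the neuronal enolase, at 0.28 ± 0.08 (adjusted p = 0.0606 in edgeR). The 12 regulators of mitochondrial biogenesis were 6 higher and 6 lower, with a median of 0.00.

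Promoter sequences were compared because most members varied together. RefSeq's table for GRCm38.p6 held 72 windows of 300 bases, from 250 before to 50 after the start, for 67 of the 84 members. Searched on both strands for 8-letter cores, the NRF1 core GCATGCGC was in 13.9% of member windows, 3.52% of the 21263 windows of protein-coding genes and 2.71% of all 32851 windows. The YY1 core AAGATGGC was in 13.9%, 3.05% and 2.75% of the same windows, and the GABP core CCGGAAGT in 6.94%, 5.15% and 3.89%. NRF1, GABP and YY1 are transcription factors known for respiratory chain genes. In 8 of 10 members with the YY1 core it began 22 to 38 bases after the start. In Atp5j it lay before the start used, in the stretch printed above, which is inside the annotated gene. Sites of 30 bases, with the core in capitals, are shown for members named above, to let the cores be read in place.
Sdhb, NRF1 core, chr4:140961206-140961235, plus strand: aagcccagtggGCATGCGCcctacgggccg
Uqcr11, NRF1 core, chr10:80406807-80406836, minus strand: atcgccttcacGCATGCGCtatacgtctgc
Atp5k, NRF1 core, chr5:108434429-108434458, minus strand: ttcactgcggcGCATGCGCctttctggctt
Ndufa9, YY1 core, chr6:126849097-126849126, minus strand: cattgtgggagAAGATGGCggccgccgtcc
Uqcrh, GABP core, chr4:116075063-116075092, minus strand: gagtatgccgcACTTCCGGccaggtcgccg

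Members with and without a core were set side by side in 5xFAD against wild-type sham mice. The median was -0.46 for the 10 members with the NRF1 core and -0.56 for the 57 without, -0.64 for the 10 with the YY1 core and -0.55 for the 57 without, and -0.74 for the 5 with the GABP core and -0.55 for the 62 without. These are counts of letters in a window and medians over genes, given with no test.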

How the data were processed

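Cortex RNA was extracted with TRIzol and made into strand-specific poly-A libraries, per the labels' protocols, and read as paired ends. The deposited counts are whole reads per gene, made by the authors on GRCm38, and the submitters' processing notes name HTSeq 0.6.1, HISAT2 2.1.0, SAMtools 1.5, FastQC 0.11.5 and bcl2fastq without their roles. The authors' deposited RPKM values equal those counts scaled by gene length and by counted reads, to a relative 8.88e-15 over 713471 nonzero values, and served for gene lengths. How reads that match several copies (processed pseudogenes are common for these genes) were counted is not given in the sources used here. The design text gives 6 5xFAD tofacitinib and 4 5xFAD-Dp16 sham mice, of which 5 and 3 were analysed here.

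The test was that of edgeR 4.0.16 (R 4.3.3), after filterByExpr over 8 groups (17632 genes), with TMM scaling and 1 quasi-likelihood fit with terms for group and sex over 34 libraries. F-tests were two-sided with Benjamini-Hochberg adjustment over all genes, in 17 comparisons. CPM, and the RPKM values printed for the members, used TMM-scaled totals. Library medians used log2 with a prior count of 1. DESeq2 1.42.0 and limma 3.58.1 (voom with sample weights) served as alternatives, with other scaling, no filter, no sex term, a replicate block, a length trend (loess, span 0.5) removed, a fit of just the compared groups, and libraries left out in turn. Positions came from GENCODE M21. The scripts were tested on simulated data. Named members were, per complex, the 2 highest in RPKM, members called or with the 2 lowest p values in a comparison, those of the segment, isoform families, those next to the CPM minimum and those opposite in sign to their complex; genes named to show a class or an extreme were chosen after their values were seen. The members and lists were chosen with earlier results of these data known. The labels do not say how mice were housed or bred. The p-values judge each difference against the spread between these mice, estimated over all 34 libraries.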

Additional observations from a re-analysis of the deposited data

Results flagged for a closer look

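In groups of 4 or 5 libraries, a value that stood far from the rest of its group by Dixon's criterion was looked for in 90 sets of values, 15 measures (library medians and the CPM of single members) in each of 6 groups. Chance marks about 1 set in 20, and 7 were marked. In 5xFAD tofacitinib library 1 the median log2 difference from wild-type sham was -0.81 for complex IV and -0.72 for complex V, and Ndufb4 was at 63.0 CPM, each far below its group. In wild-type tofacitinib library 1 Ndufb4 was far above its group, at 273 CPM, and Sdha far below it, at 356 CPM. Ndufa9 was far above its group in Dp16 tofacitinib library 4, at 141 CPM. Cox7a1, the muscle form of a complex IV subunit, was far above its group in 5xFAD tofacitinib library 2, at 4.12 CPM, the library with the most choroid plexus marker RNA.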

How the results depend on the processing

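The number of members called depended on the tool and its settings in the 5xFAD comparisons. The percent in parentheses is the share of all genes called in the same fit. The sign of the members' median was the same under each alternative in 11 of 17 comparisons, and in the other 6, with medians from -0.08 to 0.06, it changed under at least 1. In 5xFAD against wild-type sham mice edgeR called 0 members, DESeq2 55 (9%), limma-voom 61 (14.2%), edgeR with no filter on low counts 59 (5.57%), without a term for sex 19 (2.65%), with only the groups compared 58 (9.15%) and with the length trend removed 10 (1.9%), with a median of -0.198 in the last. Leaving out 1 library gave 0 to 60 there. In the interaction of 5xFAD and tofacitinib limma-voom called 74 (20.2%) and the unfiltered fit 51 (3.64%), the length trend removed gave a median of 0.163, and leaving out 1 library gave 0 to 68. In tofacitinib against sham in 5xFAD mice limma-voom called 37 (5.61%) and the unfiltered fit 45 (2%), the length trend removed gave a median of 0.0945, and leaving out 1 library gave 0 to 6. In 5xFAD carriers DESeq2 called 16 (3.33%), limma-voom 7 (2.61%), the unfiltered fit 54 (4.24%) and the fit without the length trend 2 (0.8%), and leaving out 1 library gave 0 to 5.

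In Dp16 against wild-type sham mice limma-voom (0.34%), the unfiltered fit (0.493%) and the fit without the length trend (0.312%) called 2 members each. In Dp16 carriers the unfiltered fit called 4 (2.1%) and the fit without the length trend 5 (3.5%), of which 2 were higher and 3 lower. In Dp16 against wild-type tofacitinib mice the fit of only those groups called 0, and leaving out 1 library gave 0 to 2. In 5xFAD-Dp16 against wild-type sham mice limma-voom called 1 (2%), the unfiltered fit 41 (2.73%) and the fit without the length trend 2 (0.488%). In 5xFAD-Dp16 against 5xFAD sham mice DESeq2 called 1 (0.216%), limma-voom 2 (0.51%), the unfiltered fit 3 (0.453%), the fit without the length trend 2 (0.204%) and that of only those groups 2 (0.231%). In 5xFAD-Dp16 against Dp16 sham mice the unfiltered fit called 3 (0.162%), and the median without the length trend was -0.0677. In 5xFAD-Dp16 against wild-type tofacitinib mice DESeq2 (0.715%), limma-voom (1.11%), the unfiltered fit (0.478%) and the fit without the length trend (0.539%) called 2 each, the fit without wild-type sham library 2 and 5xFAD tofacitinib library 2 called 1 (0.504%), and leaving out 1 library gave 0 to 2. The unfiltered fit also called 11 (0.29%) for tofacitinib in 5xFAD-Dp16 mice, 3 (0.159%) for tofacitinib averaged over genotypes and 1 (0.147%) for the interaction of 5xFAD and Dp16. The cause of these changes was not tested.

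Replicate numbers were not used to pair the mice. Deviations from the group means in libraries with the same number in different groups had a median correlation of 0.0173 in 98 pairs. Of these pairs, 8 were over 0.1. With different numbers the median was -0.00305 in 405 pairs, of which 36 were over 0.1. Shared litters or handling cannot be read from these values. With the replicate number as a block edgeR called 0 members in Dp16 against wild-type tofacitinib mice in place of 2, and the block changed no other number of called members by over 1.5 times.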

Other observations

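Among the mitochondrial genes outside the complexes, 1 import gene passed the test in a comparison of the genotypes. Timm44, the membrane anchor of the import motor, fell by 0.45 ± 0.10 (SE) on the log2 scale in 5xFAD-Dp16 against wild-type sham mice. Its adjusted p was 0.0348 in edgeR, in a comparison where 0.363% of all genes were called. In 5xFAD against wild-type sham mice the import gene Tomm5 was at -1.08 and Timm23, the channel of the inner membrane, at -0.65, each with an adjusted p of 0.0606. Genes of the 2-oxoglutarate dehydrogenase complex went in opposite directions there: Ogdh was at 0.30 (adjusted p = 0.0606) and Dld at -0.21 (adjusted p = 0.0787). In glycolysis Ldhb, a lactate dehydrogenase subunit, was at -0.26 (adjusted p = 0.0782), against 0.28 for Eno2. Tfam, which packages mitochondrial DNA, was at -0.25 (adjusted p = 0.135). None of these 5xFAD differences was called.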
